A study of Arabidopsis thaliana with 6 samples.

Results

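The Aux/IAA and GH3 genes of *Arabidopsis thaliana* were followed in seedlings that overexpress the rice bHLH transcription factor gene *OsbHLH068*. The members were the probes whose transcript maps to 29 Aux/IAA loci and 7 GH3 loci. They were chosen by gene family, with earlier results of these data known. Of these 36 genes, 33 were represented (26 Aux/IAA and 7 GH3), by 43 of the 43603 probes of an Agilent one-colour array. In all, 25433 genes could be matched to a probe. *IAA9*, *IAA15* and *IAA32* had no probe matched and were not analysed here.

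RNA came from aerial tissue of seedlings aged 17 days, with 3 arrays of the wild type accession Col-0 and 3 arrays of OsbHLH068OE, the transgenic plants. OsbHLH068OE was the transformant 35S::OsbHLH068 (9), in which the constitutive cauliflower mosaic virus 35S promoter drives the rice gene in the Col-0 background. Only this line was hybridized, so that effects of the transgene and of the individual line cannot be told apart. The transcript of the transgene itself was not analysed here. Replicate 1 of each group was on a first slide and replicates 2 and 3 of each group were on a second slide.

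Aux/IAA proteins are short-lived nuclear repressors that bind AUXIN RESPONSE FACTOR (ARF) transcription factors and bring in corepressors of the TOPLESS (TPL) family. Auxin acts as a glue between the F-box receptors TIR1/AFB and the Aux/IAA proteins, which are then ubiquitinated and destroyed, and the ARFs become free to act on their target genes. Many Aux/IAA genes and several GH3 genes are themselves rapid targets of this pathway and are widely used as readouts of auxin response. The GH3 enzymes listed here join the auxin indole-3-acetic acid (IAA) to amino acids, which takes active hormone out of use, so both families damp the signal that switches them on.

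Signals are given on the log2 scale after background correction and quantile normalization, and a log2-fold change is OsbHLH068OE minus Col-0. A probe was differentially expressed (DEP) where its log2-fold change exceeded 1 in either direction with an unadjusted P under 0.05 in limma, and the adjusted P is that of Benjamini and Hochberg over all 43603 probes. A gene with several probes is described by its brightest probe unless another is named. Signals of different probes are not comparable as amounts of transcript. In whole aerial tissue, fewer cells of a type and less RNA per cell cannot be told apart.

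The members were mostly lower in OsbHLH068OE, with 1 large exception. *IAA29* was 3.79-fold higher, whereas *GH3.3* was 2.97-fold lower, and these were the only 2 DEPs among the 43 member probes. Over all probes 1.17% were DEPs, with 0.378% higher and 0.789% lower. *IAA3* and a second, dimmer probe of *IAA7* were the 2 member probes with an adjusted P under 0.05, both lower, where 0.527% of all probes passed (0.266% higher and 0.261% lower). At an unadjusted P under 0.05, 11 of the 33 genes (33.3%) were lower and 3 (9.09%) were higher. Over all probes 19.8% passed this limit, with 8.88% lower and 10.9% higher. Of the 30299 probes well above background on all 6 arrays, 23.9% passed it (10.5% lower and 13.3% higher). With the slide as a block, 6 member probes had an adjusted P under 0.05, all lower, against 2.33% of all probes (1.14% lower and 1.19% higher). The count was 0 with the methods' t-test and when any array other than Col-0 replicate 1 was left out, and 7 without that array. Over all probes the count in these cases was 0, 1 to 19 and 2684, respectively.

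The 33 genes had log2-fold changes from −1.57 to 1.92 with a median of −0.14, and 22 of them were below 0. All probes had a median of 0.02, and 52.8% of them were above 0. The 26 Aux/IAA genes had a median of −0.10 and the 7 GH3 genes a median of −0.34. Signals of 30 genes were well above background on all 6 arrays, and over these the median was −0.16 with 21 genes below 0. *IAA31*, *GH3.1* and *GH3.4* were not well above background on any array, and no fold is given for them. The 14 genes with an unadjusted P under 0.05 were also those whose 3 OsbHLH068OE arrays did not overlap the 3 Col-0 arrays (11 lower and 3 higher), against 27% of all probes (12.3% lower and 14.7% higher). Of all probes well above background on all 6 arrays, 33.8% did not overlap (15.2% lower and 18.6% higher).

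**Figure D1:**
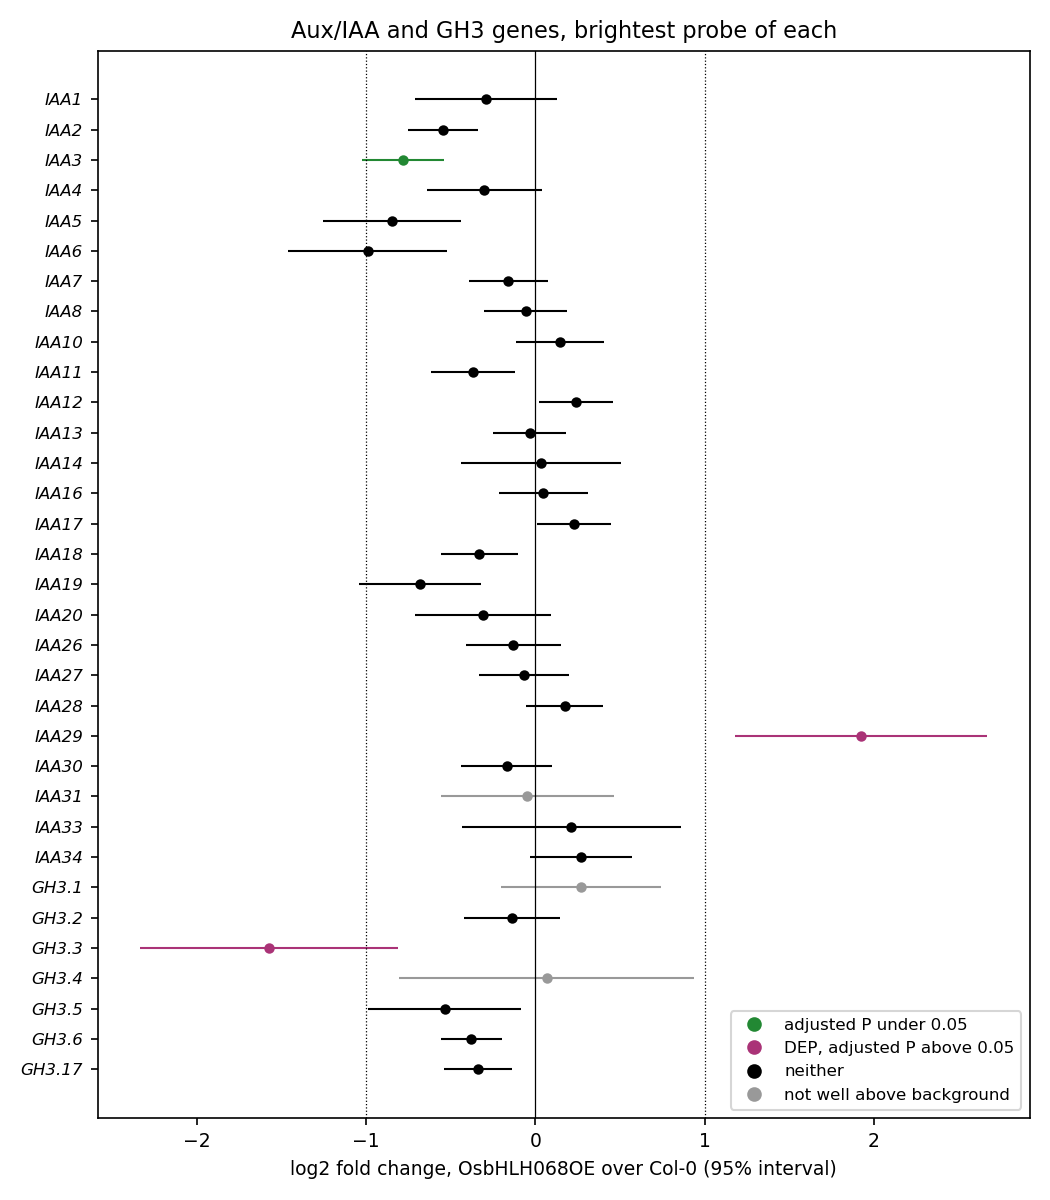
Log2-fold change of OsbHLH068OE over Col-0 (x axis) for the brightest probe of each of the 33 genes, with the 95% interval of the limma fit over 3 arrays per group, and dotted lines at −1 and 1. *IAA29* stands alone at 1.92 and *GH3.3* at −1.57, while *IAA3* at −0.78 is the only brightest probe with an adjusted P under 0.05.

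The first 30 bases of the 60-base probes behind the 2 DEPs are printed because the *IAA29* and *GH3.3* results rest on a single probe each. The letters are 5′ to 3′ as the study's supplementary table lists them, and there are no capitals because no part was singled out.
*IAA29* (chromosome 4): caataattagagatcgaccgtgtgcatata
*GH3.3* (chromosome 2): ttcggtgtacggatgtttaccccatcaatg
The whole *IAA29* probe had a GC content of 36.7% and the *GH3.3* probe one of 45.0%. Read as listed, the *IAA29* probe held a stop codon in each of the 3 frames, the first at base 4.

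*IAA29* (AT4G32280) encodes an Aux/IAA protein whose transcript is known as a direct target of PHYTOCHROME INTERACTING FACTORs (PIFs), the bHLH factors that promote elongation in shade and warmth. Its log2 signal was 7.20, 7.55 and 8.38 on the Col-0 arrays and 9.78, 9.68 and 9.44 on the OsbHLH068OE arrays. The groups did not overlap, and the lowest transgenic array lay above the highest Col-0 array. The log2-fold change was 1.92 with an SE of 0.31, the 12th highest of all probes. Its adjusted P in limma was 0.0685, above 0.05, and it stayed above with the slide as a block (0.0545). The difference was 2.58 on the first slide and 1.59 on the second, and leaving out Col-0 replicate 1, the lowest array, gave 1.67 with an adjusted P of 0.0456. Leaving out any other array gave an adjusted P of 0.0861 to 0.248. The Col-0 arrays were more scattered (SD 0.61, n = 3) than the transgenic arrays (SD 0.18, n = 3).

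The 4 genes *IAA1* to *IAA4* are close relatives that respond fast to auxin, and all 4 were lower in OsbHLH068OE, with log2-fold changes from −0.78 to −0.29. *IAA3* (*SHY2*, AT1G04240), which limits meristem size in roots where cytokinin and auxin signals meet, had the clearest difference. Its log2 signal was 12.21, 11.98 and 11.98 in Col-0 and 11.25, 11.21 and 11.37 in OsbHLH068OE. The groups were separated by more than the range of either group. *IAA3* fell by 0.78 on the log2 scale (SE 0.0986), a 1.72-fold difference, with an adjusted P of 0.0467 in limma. This call was close to the threshold: the adjusted P ranged up to 0.230 when an array was left out, and it passed only without Col-0 replicate 1 (0.0393).

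*IAA2* (AT3G23030) was measured by 2 probes that gave nearly the same difference. The brighter probe read 14.63, 14.72 and 14.83 in Col-0 and 14.14, 14.22 and 14.17 in OsbHLH068OE, with no overlap. Its log2-fold change was −0.55 (SE 0.0848) with an adjusted P of 0.0660, and that of the dimmer probe was −0.60 with an adjusted P of 0.138. With the slide as a block the adjusted P was 0.0448 and 0.0433, respectively, both under 0.05. *IAA4* had log2-fold changes of −0.30 and −0.34 at its 2 probes with adjusted P of 0.295 and 0.264. *IAA1* (*AXR5*), one of the classic early auxin-induced transcripts, had a log2-fold change of −0.29, an overlap between the groups and a 95% interval from −0.71 to 0.13.

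*IAA5*, *IAA6* and *IAA19* form another branch of the family, and their combined loss is known to alter glucosinolate levels and drought tolerance. All 3 were lower with no overlap between the groups, and their median log2-fold change of −0.85 was the lowest of the branches. *IAA6* (AT1G52830) read 10.60, 10.12 and 9.96 in Col-0 and 9.45, 9.12 and 9.13 in OsbHLH068OE. It missed the DEP limit narrowly at −0.99 (SE 0.193, 1.99-fold lower), with an adjusted P of 0.0934 that dropped to 0.0392 with the slide as a block. It was counted as a DEP when Col-0 replicate 2, Col-0 replicate 3 or OsbHLH068OE replicate 1 was left out.

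*IAA5* (AT1G15580) read 8.50, 8.29 and 8.91 in Col-0 and 7.77, 7.75 and 7.63 in OsbHLH068OE. The 3 transgenic arrays lay close together, below the lowest Col-0 array. The log2-fold change was −0.85 (SE 0.168) with an adjusted P of 0.0950. *IAA19* (*MSG2*, AT3G15540), a repressor of ARF7 in hypocotyl bending, read 11.00, 10.49 and 10.57 in Col-0 and 10.01, 10.05 and 9.96 in OsbHLH068OE. Here too the transgenic arrays were tightly grouped and Col-0 replicate 1 was the highest. The log2-fold change of *IAA19* was −0.68 (SE 0.148) with an adjusted P of 0.108. *IAA19*, like *IAA29*, is a known PIF target in seedlings, and its log2-fold change had the opposite sign.

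**Figure D2:**
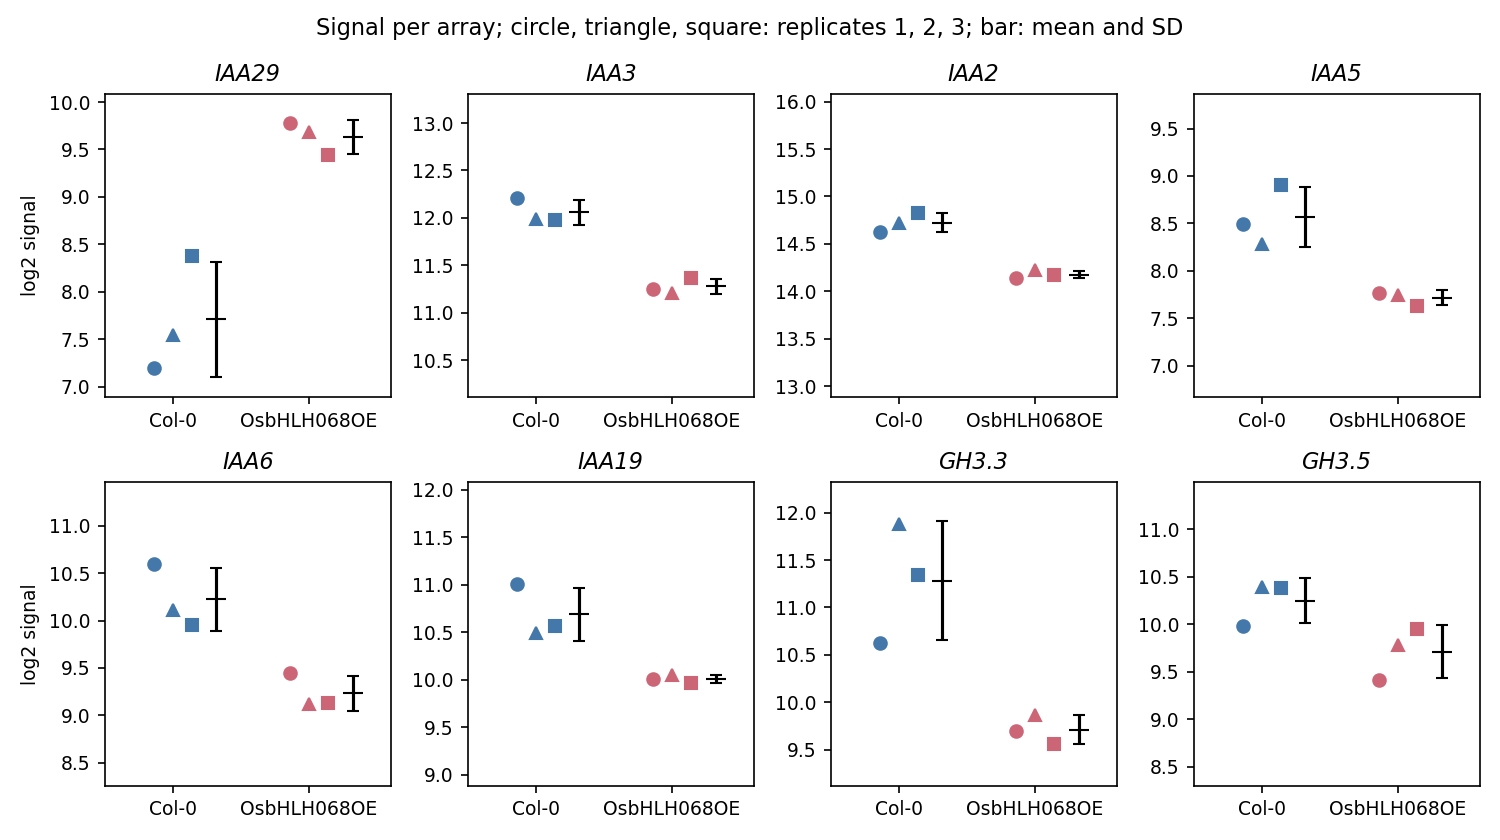
Log2 signal (y axis) of the 8 members with a called or at least 0.5 log2-fold change, per array, with the mean and SD of each group of 3 beside the points; each panel spans the same height on the log2 scale. *IAA29* is the only panel in which the 3 OsbHLH068OE arrays lie above the 3 Col-0 arrays, and the groups do not overlap in any panel.

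*IAA7* (*AXR2*, AT3G23050), *IAA14* (*SLR*), *IAA16* and *IAA17* (*AXR3*) form the branch in which stabilizing mutations gave well-known auxin-resistant mutants, such as *slr*, which forms no lateral roots. Their brightest probes had a median log2-fold change of 0.04. *IAA17* was 1.17-fold higher (log2-fold change 0.23, adjusted P 0.242) with no overlap at either of its 2 probes. *IAA14* at 0.04 and *IAA16* at 0.05 were near 0, with 95% intervals from −0.44 to 0.51 and from −0.22 to 0.31.

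*IAA7* gave different values at its 2 probes, which were designed to different transcripts of the gene. The brighter probe had a log2-fold change of −0.16 (adjusted P 0.398) with an overlap between the groups. The dimmer probe, described after its values were seen, read 7.57, 7.64 and 7.42 in Col-0 and 6.89, 6.82 and 6.77 in OsbHLH068OE. These values were well above background on all 6 arrays and did not overlap. *IAA7* thus fell at this probe by 0.72 (SE 0.0909, adjusted P 0.0467), and this call was lost when any array other than Col-0 replicate 1 was left out. Among the 9 genes with several probes, the *IAA7* probes differed the most, by 0.56. Next came *IAA13* with 0.26, whose dimmer probe was not well above background on any array, and the other 7 genes differed by at most 0.11.

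The remaining Aux/IAA branches had median log2-fold changes near 0. Among *IAA10* to *IAA13*, *IAA12* (*BODENLOS*), the partner of ARF5 in embryo patterning, was 1.18-fold higher (log2-fold change 0.24, adjusted P 0.229), and *IAA11* was lower at −0.37 (adjusted P 0.147). Both had groups that did not overlap, while *IAA10* (0.15) and *IAA13* (−0.03) overlapped. *IAA18* was lower at each of its 3 probes, from −0.33 to −0.22, and its brightest probe had an adjusted P of 0.153. Its relatives *IAA26* and *IAA28*, a repressor of lateral root initiation, had log2-fold changes of −0.13 and 0.17 with overlapping groups. *IAA8* at −0.06 and *IAA27* at −0.07 overlapped as well.

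*IAA20* and *IAA30* to *IAA34* encode proteins that lack all or part of the degron through which auxin receptors bind. Of this branch, 4 genes gave signals well above background, and the groups overlapped in each of them. Their log2-fold changes were −0.31 for *IAA20*, −0.17 for *IAA30*, 0.21 for *IAA33* and 0.27 for *IAA34*. The widest 95% interval was that of *IAA33*, from −0.44 to 0.86. The branches follow known sister relationships and were set after the values were seen, so their counts and medians are a description with no test.

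**Figure D3:**
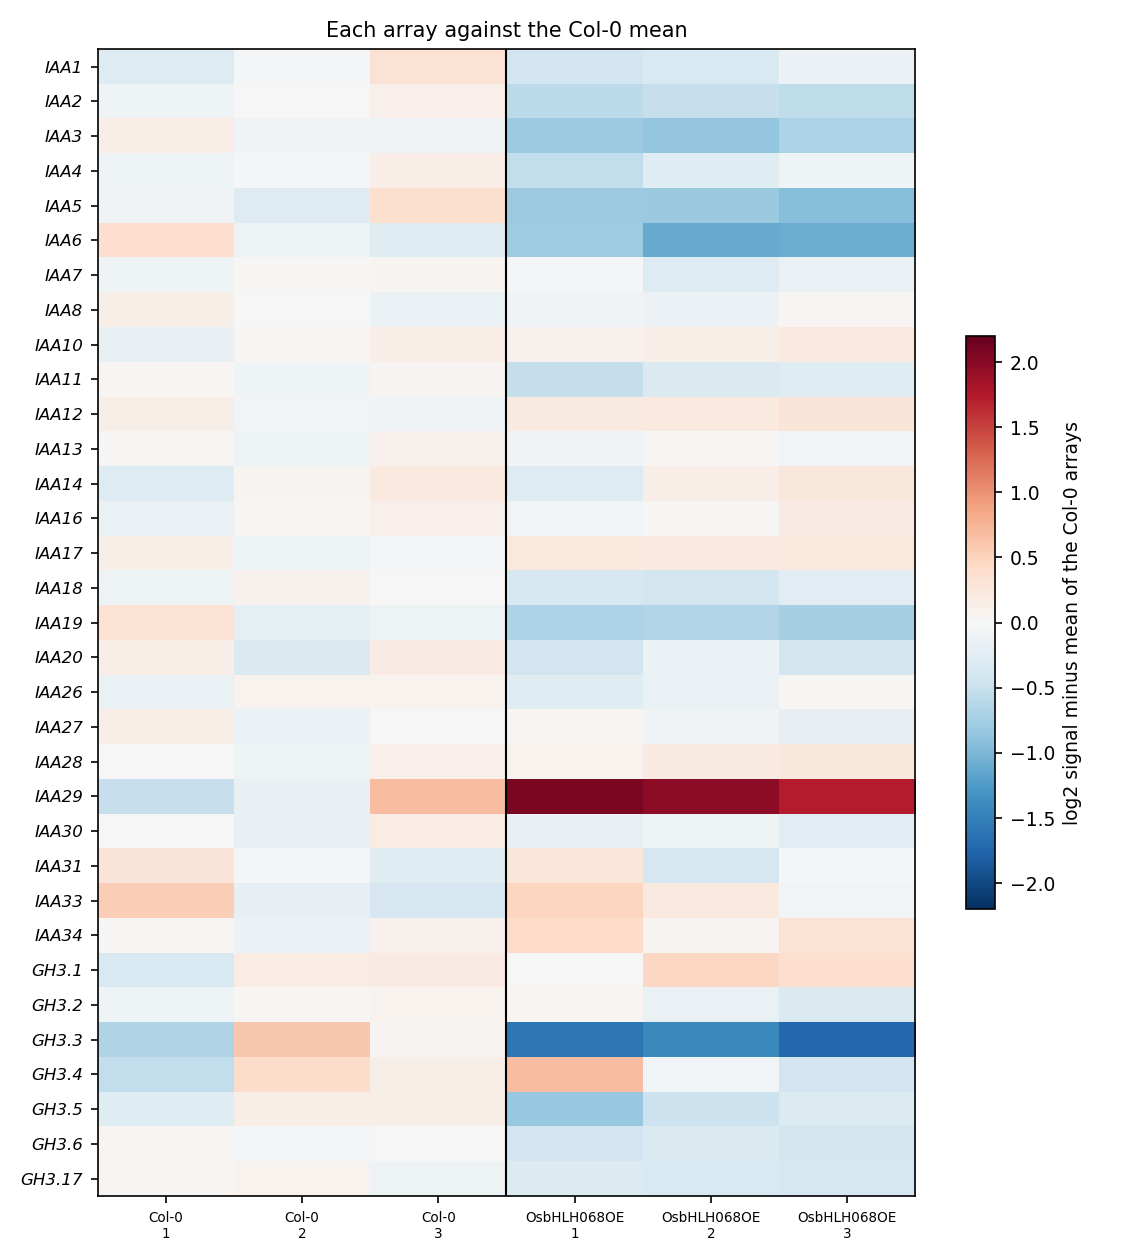
Log2 signal of the brightest probe of each gene on each array minus the mean of its 3 Col-0 arrays, in colour (blue below 0, red above 0), with the 3 Col-0 arrays left of the line and the 3 OsbHLH068OE arrays right of it. The *IAA29* row is red on all 3 transgenic arrays, and the rows of *IAA2*, *IAA3*, *IAA5*, *IAA6*, *IAA19* and *GH3.3* are blue on all 3.

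Of the 7 GH3 genes, 4 had an unadjusted P under 0.05, all lower, where 19.8% of all probes passed (8.88% lower). None of the 7 had an adjusted P under 0.05 in limma, where 0.527% of all probes passed. *GH3.3* (AT2G23170), a strongly auxin-inducible synthetase that acts with *GH3.5* and *GH3.6* in adventitious rooting, had the largest difference. Its log2 signal was 10.63, 11.88 and 11.34 in Col-0 and 9.70, 9.87 and 9.56 in OsbHLH068OE. The Col-0 arrays were spread widely (SD 0.63, n = 3) around a mean of 11.28, and the lowest of them was still above the highest transgenic array. The log2-fold change of *GH3.3* was −1.57 (SE 0.312), the 142nd lowest of all probes, with an adjusted P of 0.0951. It was −0.93 on the first slide and −1.89 on the second, so that Col-0 replicate 1 lay closest to the transgenic plants. Without that array the value was −1.90 with an adjusted P of 0.0383. Without any other array the adjusted P was 0.190 to 0.265, and without Col-0 replicate 2, the highest array, the value was −1.27.

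*GH3.5* (*WES1*, AT4G27260), which acts on IAA and on salicylic acid, read 9.98, 10.39 and 10.38 in Col-0 and 9.41, 9.78 and 9.95 in OsbHLH068OE. The highest transgenic array was only just below the lowest Col-0 array. Its log2-fold changes were −0.54 (SE 0.184, adjusted P 0.201) and −0.60 (adjusted P 0.227) at the 2 probes, and replicate 1, on the first slide, was the lowest array of each group. With the slide as a block the brighter probe had an adjusted P of 0.0487 and the dimmer one of 0.0576. *GH3.6* (*DFL1*), whose overexpression shortens hypocotyls, was lower by a smaller but evenly measured amount, at −0.38 (SE 0.0746, adjusted P 0.0950). *GH3.17* (*VAS2*), which prefers glutamate as the partner of IAA, had −0.34 (SE 0.0827, adjusted P 0.126). The groups did not overlap in either gene. *GH3.2* (*YDK1*) gave a low signal, with a log2-fold change of −0.14, overlapping groups and a 95% interval from −0.42 to 0.15.

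The spread within groups was unequal for many members. In 22 of the 33 genes (66.7%) the SD was larger over the Col-0 arrays than over the OsbHLH068OE arrays, and the same held for 60.7% of all probes. The limma fit assumes a common spread in both groups.

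Aux/IAA genes lie next to each other at 3 places in the genome, and the neighbours had different log2-fold changes at their brightest probes. On chromosome 1, *IAA3* at −0.78 was beside *IAA17* at 0.23, with no other protein-coding gene between them. On chromosome 3, *IAA2* at −0.55 was beside *IAA7* at −0.16, and on chromosome 4, *IAA1* at −0.29 was beside *IAA14* at 0.04. At the brightest probes, the neighbour of the *IAA1* to *IAA4* branch had the lower log2-fold change in all 3 pairs, by 1.01, 0.39 and 0.33, respectively. On chromosome 3 the order turned at the dimmer *IAA7* probe, whose −0.72 was below both *IAA2* probes. The difference between the brightest probes of the neighbours, taken on each array, did not overlap between the groups in any pair. A two-sided exact permutation test of it gave p = 0.1 for each pair, the smallest value that 3 against 3 arrays allow, and the pairs were chosen after the values were seen, so that nothing is supported by it.

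**Figure D4:**
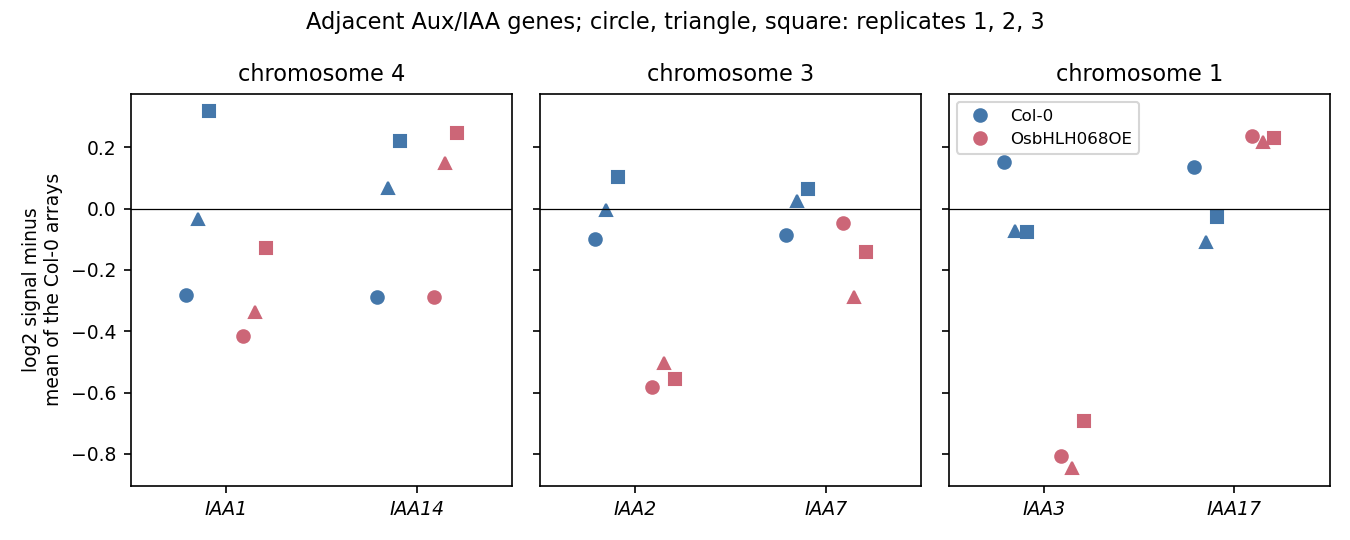
Log2 signal minus the mean of the Col-0 arrays (y axis) for the 3 pairs of adjacent Aux/IAA genes, per array, with blue points for Col-0 and red points for OsbHLH068OE. On chromosome 1 the transgenic arrays are below all Col-0 arrays for *IAA3* and above them for *IAA17*, while *IAA14* overlaps throughout.

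Genes that act before and beside the members were counted from lists of the auxin pathway, and none of their brightest probes was a DEP or had an adjusted P under 0.05. Single genes are named from these lists after their values were seen. Of 14 genes of auxin synthesis, which run from tryptophan through the TAA1 aminotransferase family and the YUCCA monooxygenases, 10 were above 0 and 3 had an unadjusted P under 0.05, all higher. They were *YUC2* (log2-fold change 0.65, adjusted P 0.0958), *TAA1* (0.59, adjusted P 0.113) and *YUC7*, which was not well above background on any Col-0 array. Over all probes 52.8% were above 0, and 19.8% had an unadjusted P under 0.05 (10.9% higher and 8.88% lower). Only 8 of the 14 synthesis genes were well above background on all 6 arrays, so the counts of this list include background-level probes. All 9 genes of conjugate hydrolysis and IAA oxidation were below 0, with a median of −0.29, but none had an unadjusted P under 0.05. Of 16 transport genes, 1 was higher and 3 were lower at that limit, where 10.9% and 8.88% of all probes passed. Among these genes were the efflux and influx carrier gene *ABCB21* at 0.73 (adjusted P 0.147) and the influx carrier gene *AUX1* at −0.37 (adjusted P 0.192).

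The receptors and their nuclear partners had log2-fold changes from −0.30 to 0.36. Among 6 TIR1/AFB receptor genes the log2-fold changes ran from −0.22 to 0.23, and only *AFB3* at 0.23 had an unadjusted P under 0.05. The median of 20 ARF genes was 0.15, and 14 of them were above 0, as were 52.8% of all probes. The groups did not overlap in 6 higher and 1 lower ARF gene, against 14.7% and 12.3% of all probes. At an unadjusted P under 0.05, 2 ARF genes were higher and 1 was lower. *ARF16* at 0.35, one of the ARFs that repress transcription, and *ARF19* at −0.23, an activator, were among them. Of 5 TPL corepressor genes 4 were above 0, and *TPR3* at 0.34 had an unadjusted P under 0.05.

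The SAUR genes are another family of fast auxin-induced transcripts with roles in cell expansion. Only genes with a numbered SAUR symbol in the gene table were listed, 15 in all, and 13 of them had a probe. Over all probes 10.9% were higher and 8.88% were lower at an unadjusted P under 0.05. Of the 13 listed genes, 4 were higher and 4 were lower at this limit, so that the list was divided. The lower ones included *SAUR36* (−0.85) and *SAUR27* (−0.83, adjusted P 0.0660), and the higher ones included *SAUR75* (0.49) and *SAUR63* (0.43). Of the GH3 genes outside the members, 6 were listed, and none of these had an unadjusted P under 0.05. Signals of 2 of the 6 were not well above background on any array. *PBS3*, of salicylic acid synthesis and 1 of the 6, had −1.27 with an SE of 0.680 and overlapping groups.

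Of 12 PIF and shade genes, 4 were higher and 2 were lower at an unadjusted P under 0.05. The higher ones were *PIL1* (0.85), *PIF7* (0.65), *HFR1* (0.50) and *PIF1* (0.46), and the lower ones were *PAR1* (−0.50) and *PIF3* (−0.41). All 12 genes were well above background on all 6 arrays, and of all such probes 13.3% were higher and 10.5% lower. *HAT2* (0.47), *HAT1* (0.24) and *ATHB4* (−0.21) had overlapping groups. *PIL1* and *HFR1* are rapid shade-induced transcripts, and *PIL1* had an adjusted P of 0.106 that was 0.0415 with the slide as a block. *ATHB2*, another such transcript, had −0.20 with overlapping groups, and *PIF4* and *PIF5*, whose proteins bind the *IAA29* promoter, had −0.14 and 0.05 with overlapping groups.

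**Figure D5:**
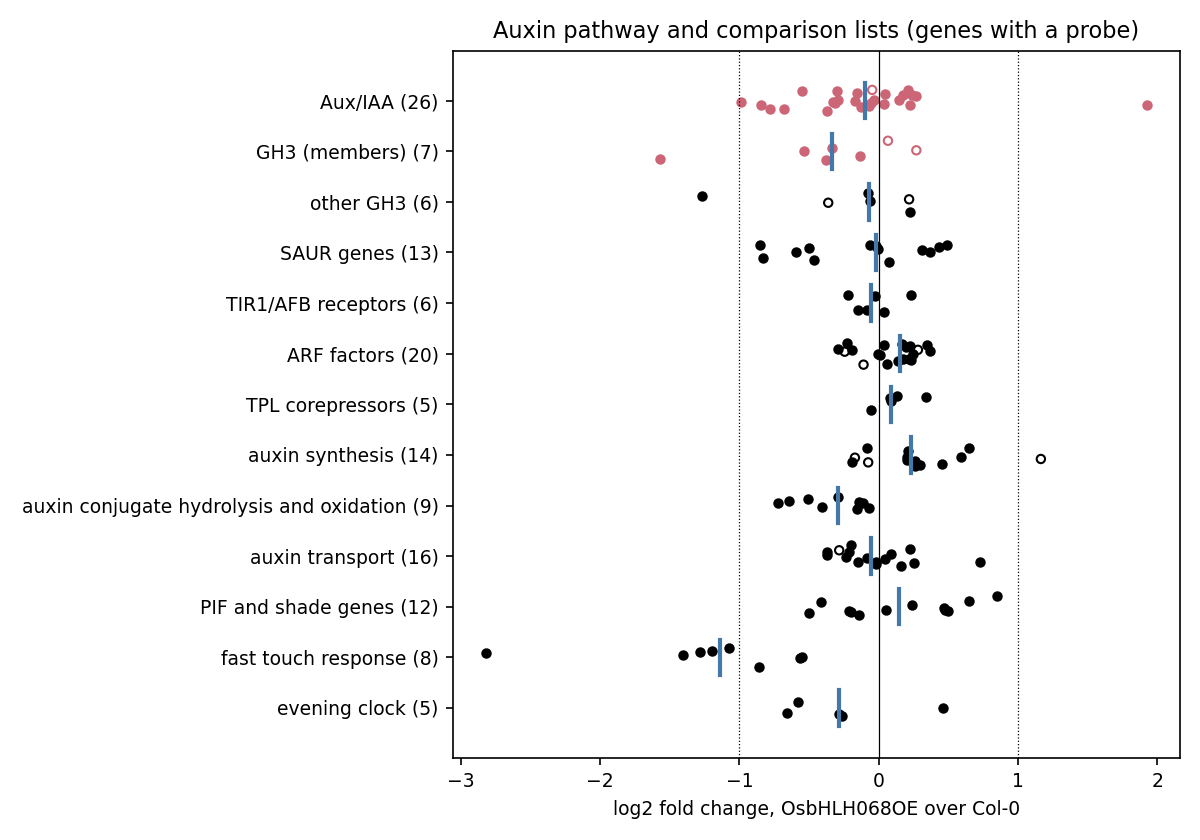
Log2-fold change of OsbHLH068OE over Col-0 (x axis) of each gene with a probe, by list, with the number of genes in brackets and a blue bar at the median. Red points are Aux/IAA genes and GH3 members, and open points are not well above background on any array. *IAA29* at 1.92 and *GH3.3* at −1.57 lie outside the range of all other auxin lists (−1.27 to 1.16), and the fast touch response list lies below 0 throughout.

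Other transcripts moved with the group beside the members. The mean log2 signal of 8 transcripts induced within minutes of touch or handling, listed with these results known, was 12.05 to 12.35 on the Col-0 arrays and 10.74 to 11.28 on the OsbHLH068OE arrays, with all 8 below 0 and 5 DEPs. *TCH4* (log2-fold change −2.82) and *SZF1* (−1.28) had an adjusted P under 0.05. Over 5 evening clock genes the mean was 7.99 to 8.12 in Col-0 and 7.71 to 7.96 in OsbHLH068OE, with 4 genes below 0 and *GI* at 0.46, higher with no overlap between the groups. Over 4 morning clock genes the mean overlapped between the groups. Of these genes, *LHY* (0.33) and *CCA1* (0.21) were higher with no overlap, while *PRR7* (−0.02) and *PRR9* (−0.26) overlapped. The part of these transcripts in the differences of *IAA29*, *GH3.3* and the other members was not tested.

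The labelled tissue was checked against marker genes. The mean log2 signal of 4 green tissue markers was 16.25 to 16.30 in Col-0 and 16.41 to 16.51 in OsbHLH068OE, and the photosynthesis regulator *GLK1* at 0.79 (adjusted P 0.0484) was the only one with an adjusted P under 0.05. *LHCB1.3* (−0.01), *RBCS1A* (0.03) and *CA1* (−0.01) had overlapping groups, and the median of the list was 0.01. The 8 root markers had a mean of 4.85 to 4.90 in Col-0 and 4.82 to 4.85 in OsbHLH068OE. Only 2 of them were well above background on all 6 arrays, and 3 were not well above background on any array. All 5 flower markers were well above background on all arrays, with means of 9.68 to 10.27 in Col-0 and 9.52 to 10.03 in OsbHLH068OE that overlapped. Single markers went in opposite directions. *SEP3* was lower at −0.78 with no overlap (adjusted P 0.209), and *AG* was higher at 0.55 with overlapping groups (adjusted P 0.232). *AP1*, *AP3* and *PI* overlapped as well. The groups had the same age, and the paper reports that this line flowers later than Col-0. The part of green or floral tissue in the members' values was not tested.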

How the data were processed

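Total RNA of 6 samples was amplified, labelled with Cy3 and hybridized to Agilent *Arabidopsis* arrays, and the scans were read with Feature Extraction 10.7.1.1. The methods state that labelled cRNA was pooled before hybridization without saying what was pooled. The authors deposited intensity values (median spot, median local background and processed signal) and a table of log2 values made in limma, with the normexp correction followed by quantile scaling between arrays. The same steps with an offset of 0, repeated on the median intensities over all 45220 spots, differed from the deposited log2 table by at most 5.00e-09, so the deposited log2 values were used. Median spot signals were 284 to 356 against local backgrounds of 29 to 32, between 70.9% and 74.0% of probe spots were well above background, and 0 spots were saturated. The number of arrays limits the precision. Correlations between arrays were 0.990 to 0.995 within groups and 0.985 to 0.992 between groups.

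After 1417 control spots were left out and repeat spots averaged, 43603 probes were fitted over all 6 arrays with lmFit and eBayes (constant prior, 2.03 prior degrees of freedom) in limma 3.58.1 under R 4.3.3, and summarized with pandas 2.3.3. Calls were made at the fold and P limits that the methods set for a DEP, but on the moderated P of limma in place of Student's test, and at a Benjamini-Hochberg adjusted P under 0.05 over all probes. Transcript accessions were matched to a RefSeq gene table of TAIR10.1, which named 34358 probes and gave the order of neighbouring genes. No coordinates were used. Values per array were given for members that were DEPs, had an adjusted P under 0.05, or had an absolute log2-fold change of at least 0.5 with an unadjusted P under 0.05. Other genes named from the lists were picked after their values were seen. The members and lists were chosen with earlier results of these data known. From the SAUR list, a locus to which the gene table gives the name of another locus was left out. The pipeline was tested on simulated data. Alternatives were other background corrections, scalings, filters and variance models, the methods' t-test, blocks for slide and replicate number, a lower fold limit, all probes of a gene, and leaving out each array. The labels call the samples biological repeats without naming separate cultures, so the P values measure the spread between these arrays.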

Additional observations from a re-analysis of the deposited data

How the results depend on the processing

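No member named with values per array changed direction under any alternative, and the median of the 33 genes, −0.14 on the log2 scale, ranged from −0.20 to −0.07. *IAA29* stayed between 1.67 and 2.26 and *GH3.3* between −1.90 and −1.27, and both were DEPs under every background correction, scaling, filter, test and block tried. The number of member probes with an adjusted P under 0.05, 2, moved with most alternatives. It was 10 with a normexp offset of 50, 4 with an offset of 16, 8 with no background correction, 8 with dim probes left out, 8 with an intensity trend and a robust prior, and 6 with the slide as a block. Over all probes the counts were 1564, 802, 1524, 1347 (of 31273 probes), 1387 and 1018, respectively, against 230 in the main fit. The member count was 1 with the scaled processed signal (196 over all probes) and 1 with normexp values scaled to the 75th percentile (170 over all probes). With the methods' t-test it was 0, and 0 of all probes passed after adjustment. That test gave 4 member probes higher and 13 lower at an unadjusted P under 0.05. It gave 396 DEPs over all probes (144 higher, 252 lower). When single arrays were left out the member count ranged from 0 to 7, with 7 without Col-0 replicate 1 and 0 without any other array. Over all probes the count was 2684 without Col-0 replicate 1 and 1 to 19 without any other array. The cause was not tested. The member probes higher at an unadjusted P under 0.05, 3, ranged from 1 to 4 when single arrays were left out, and 4 without Col-0 replicate 1. With a log2-fold limit of 0.5 in place of 1, 11 member probes were DEPs, and the share of all probes at that limit was not counted. With cyclic loess *IAA6* was a DEP as well, which made 3. Over all probes there were 509 DEPs (165 higher, 344 lower) and 230 probes with an adjusted P under 0.05, against 926 DEPs (431 higher, 495 lower) with the scaled processed signal, 1060 DEPs without Col-0 replicate 1, and 1564 adjusted calls with the offset of 50. Same-numbered arrays of the 2 groups deviated together with correlations of 0.261, 0.0971 and 0.0130, and differently numbered arrays with −0.216 to 0.133. With 3 arrays per group, these values cannot decide whether the numbers pair the samples. With the replicate block 0 member probes and 1 of all probes had an adjusted P under 0.05, while the 2 DEPs remained, *IAA29* and *GH3.3*. No signal was saturated, and dim probes such as those of *IAA31*, *GH3.1* and *GH3.4* limit what can be said of those genes.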
